A study of Mus musculus with 10 samples.

Results

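The 10 genes described here are transcripts that receptor tyrosine kinases are known to induce through ERK, and many of their products act back on that pathway: the ETS transcription factors Etv1, Etv4 and Etv5, the Sprouty genes Spry1, Spry2 and Spry4, the phosphatase genes Dusp4 and Dusp6, and the SPRED genes Spred1 and Spred2. They were chosen by symbol, as known targets of such signalling, with earlier results of these data known. They are 10 of the 51912 genes in the count files. The deposited tables give the symbol of 9 of them, and Etv4, which those tables do not list, was found in the count files through its GENCODE identifier. The libraries hold polyadenylated RNA of motor neurons cut by laser from frozen sections of the mouse lumbar spinal cord, about 50 cells per animal. There were 5 HSA-NRTN mice (3 females and 2 males), which carry a neurturin transgene under the promoter of human skeletal actin, active in muscle fibres, and 5 wild-type littermates (3 females and 2 males). The labels state neither age nor strain. Only cells with a visible nucleolus and an area above 200 square micrometres were taken, which removes small motor neurons, and the transgene acts outside the captured cells.

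Neurturin belongs to the GDNF family of ligands, which bind a GFRA co-receptor and activate the receptor tyrosine kinase RET. RET recruits adaptors that load RAS with GTP, and RAF, MEK and ERK kinases then carry the signal to the nucleus. ETV1, ETV4 and ETV5 are the PEA3 subfamily of ETS factors, and in embryonic motor neurons GDNF from the limb is known to switch on Etv4 in defined motor pools. Sprouty and SPRED proteins restrain the path between receptor and RAF, and the phosphatases DUSP4 and DUSP6 remove the activating phosphates from ERK, so a higher level of these transcripts is commonly used as a sign of ERK output. The comparison asks whether they differ in motor neurons whose target muscle makes more neurturin.

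Of the 10 genes, 7 passed the filter on low counts and none of these passed the test between genotypes. With no filter beyond 1 count all 10 were tested, and none passed either. Levels are given as CPM, counts scaled to library size. The largest ratios of means among the tested genes were those of Dusp6, at 5.71 ± 1.47 CPM in HSA-NRTN and 2.68 ± 2.58 CPM in wild-type pools, and of Etv1, at 37.4 ± 34.6 CPM in HSA-NRTN and 18.9 ± 17.6 CPM in wild-type pools (SD over 5 libraries each). Dusp4 was counted in 4 of 5 HSA-NRTN libraries and 1 of 5 wild-type libraries, at levels below the filter. Among the 7 genes, Spred1 and Spred2 had the ratios nearest to 1. The mean level was higher in HSA-NRTN pools for 9 of the 10 genes and lower for 1, Etv4, where 55.8% of the 26070 genes with a count had a higher mean in HSA-NRTN pools.

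The promoters of a pair of these genes, one with the highest level per length (Spry2) and one with the largest fitted difference among the 7 genes past the filter (Dusp6), are given here because ETS factors bind a GGAA core and the ERK pathway acts on these genes partly through such factors. Each line gives the 250 bases before the transcription start, 5′ to 3′ on the gene's strand, from RefSeq on GRCm38.p6 (Dusp6, plus strand, chr10:99262981-99263230; Spry2, minus strand, chr14:105896820-105897069). Capitals mark GGAA or, for a match on the other strand, TTCC.
Dusp6: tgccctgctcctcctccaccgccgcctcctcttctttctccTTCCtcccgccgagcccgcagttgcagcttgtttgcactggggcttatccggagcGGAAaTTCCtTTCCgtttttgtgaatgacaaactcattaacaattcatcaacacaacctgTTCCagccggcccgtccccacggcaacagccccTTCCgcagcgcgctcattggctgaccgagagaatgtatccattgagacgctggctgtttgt
Spry2: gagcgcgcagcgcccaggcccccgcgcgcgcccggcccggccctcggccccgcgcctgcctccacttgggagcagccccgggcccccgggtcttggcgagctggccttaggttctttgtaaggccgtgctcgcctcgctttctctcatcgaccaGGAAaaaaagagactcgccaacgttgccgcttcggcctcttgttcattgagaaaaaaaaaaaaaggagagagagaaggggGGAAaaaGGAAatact
Dusp6 held 6 matches to GGAA in this window and Spry2 held 3. A match of 4 letters is common, since 93.4% of the 32851 windows in the table held at least 1 on either strand. Of the longer forms searched on both strands, CAGGAA stood in 25.7% of all windows and CCGGAA in 12.0%, and each includes GGAA. Spry2, Spred1 and Etv5 were the 3 of 7 matched genes with a CAGGAA in any of their windows, and none of the 7 held CCGGAA. These matches describe letters, not occupied sites, and no measurement here bears on binding.

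The libraries held 1875971 to 6641695 gene counts, and 14090 to 19675 genes had at least 1 count. All 8 motor neuron markers were counted, with a summed level of 12864 to 22282 CPM in HSA-NRTN and 16226 to 26358 CPM in wild-type pools. HSA-NRTN replicate 2 and wild-type replicate 1 stood apart: they had the highest summed levels of 6 astrocyte markers (748 and 295 CPM, against 46.4 to 234 CPM in the other libraries) and of 6 oligodendrocyte markers (1398 and 600 CPM, against 193 to 448 CPM). They also had the highest mitochondrial shares of counts (11.9% and 12.9%, against 4.15% to 8.62%), and HSA-NRTN replicate 2 had the lowest share of reads counted to genes, 13.5%. No marker of either list was at 0 in all libraries. Markers of oligodendrocyte precursors, cells in which ERK signalling is known to be active, summed to 2.57 to 20.0 CPM in HSA-NRTN and 0 to 5.34 CPM in wild-type pools over 4 genes (exact two-sided permutation p = 0.0635, n = 5 each). This was the smallest p of all the cell type lists examined, the others having 0.135 to 0.968 in the same test. None of these 4 genes passed the filter on low counts, and the highest sum was that of HSA-NRTN replicate 2. The 4 genes did not share a direction. In HSA-NRTN pools Gpr17 reached 10.8, Olig2 7.03, Cspg4 2.16 and Pdgfra 3.26 CPM. In wild-type pools Gpr17 reached 1.17, Olig2 3.11, Cspg4 0 and Pdgfra 4.82 CPM. The part of these cells in the results was not tested. In pools of cells, fewer expressing cells and less RNA per cell cannot be told apart. P-values measure the spread between animals, 1 pool each. Intervals on counts leave out the spread between animals and treat each read as 1 molecule. Amplified reads that carry no molecular identifier do not each stand for 1 molecule, so these intervals can be too narrow even for counting error.

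**Figure D1:**
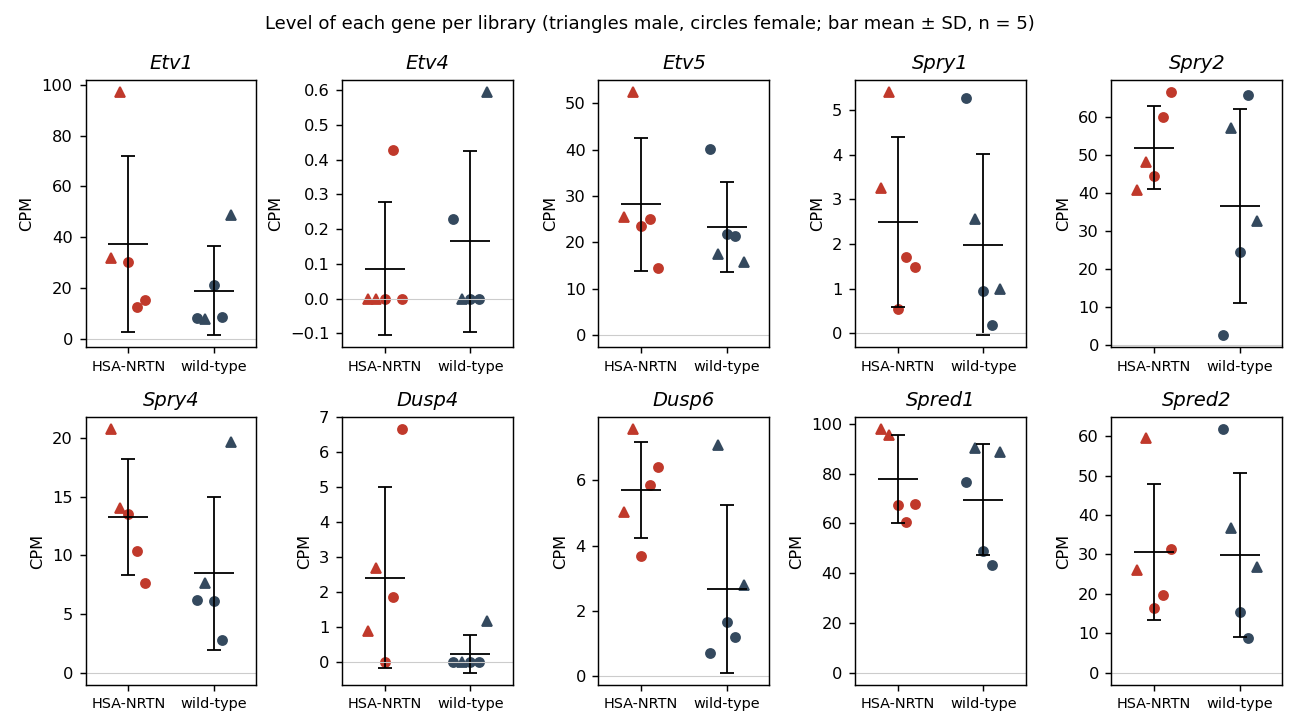
Level of each of the 10 genes in CPM (counts scaled to library size) in every library, HSA-NRTN left and wild-type right, with triangles for males and circles for females. Horizontal bars are means and whiskers the SD over 5 libraries. In no gene do the genotypes separate, and for Etv1, Spry2, Spry4 and Dusp6 all HSA-NRTN libraries lie above the wild-type median.

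Among the ETS factors, Etv5 was the most abundant per kilobase of exon in all 10 libraries. By the longest coding transcript it led in 8, and Etv1 in the other 2. Etv5 (ENSMUSG00000013089) lies on chromosome 16 of GRCm38 from 22381309 to 22439719, minus strand. It had 25.5, 52.4, 23.4, 24.9 and 14.5 CPM in HSA-NRTN replicates 1 to 5, against 40.2, 17.6, 21.8, 21.3 and 15.9 CPM in wild-type replicates 1 to 5. The groups overlapped over nearly their whole ranges, and 1 library of each genotype stood high, replicate 2 of HSA-NRTN and replicate 1 of the wild type. The fitted log2 fold change was 0.26 (SE 0.41, 95% interval -0.62 to 1.14), and the adjusted p was 0.999 in edgeR's quasi-likelihood test. These were also the libraries with the highest astrocyte and oligodendrocyte marker sums and mitochondrial shares, and astrocytes are known to express Etv5. Without both libraries the log2 fold change was 0.21, and it was -0.080 without HSA-NRTN replicate 2 alone. The part of glial RNA or RNA quality in the level of Etv5 was not tested.

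Etv1 (ENSMUSG00000004151), a factor known in the nervous system for its role in proprioceptive sensory neurons, lies on chromosome 12 from 38779380 to 38870484, plus strand. It had 31.7, 97.3, 30.2, 12.4 and 15.3 CPM in HSA-NRTN replicates 1 to 5, against 8.26, 7.93, 21.1, 8.61 and 48.8 CPM in wild-type replicates 1 to 5. All 5 HSA-NRTN libraries were above the wild-type median of 8.61 CPM, but only replicate 2 exceeded the highest wild-type library, replicate 5. The log2 fold change was 0.96 (SE 0.63, 95% interval -0.38 to 2.31), which did not pass (edgeR adjusted p = 0.999). It rested on single libraries: it was 0.24 without HSA-NRTN replicate 2, 1.67 without wild-type replicate 5 (unadjusted p = 0.0162, with no adjusted p under 0.439 in any alternative) and 0.043 with HSA-NRTN replicate 2 left out together with wild-type replicate 1. Its highest library was 12.3 times its lowest, and of the 7 tested genes only Spry2 had a larger such ratio, 26.4.

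Etv4 (ENSMUSG00000017724), the factor induced by GDNF in embryonic motor pools, lies on chromosome 11 from 101769742 to 101785371, minus strand, and was near the limit of detection. It had 3 counts in HSA-NRTN replicate 4 and 0 in the other 4 HSA-NRTN libraries. It had 1 count in wild-type replicate 1, 3 in wild-type replicate 5 and 0 in the other 3 wild-type libraries. The ratio of pooled counts, 3 against 4 and scaled for library size, was 0.793 with an exact 95% counting interval of 0.116 to 4.69. A count of 0 over all libraries of a genotype would have allowed up to 0.138 CPM in HSA-NRTN and 0.130 CPM in wild-type pools. Of 4 genes known to depend on Etv4 in embryonic motor neurons, all were tested and none passed, 3 with a positive and 1 with a negative log2 fold change. The one of smallest p was Sema3e, a secreted guidance protein gene, at 30.8 ± 45.4 CPM in HSA-NRTN and 9.84 ± 7.52 CPM in wild-type pools (SD over 5 each, edgeR unadjusted p = 0.105).

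Spry2 was the most abundant of the 10 genes per length. Its product binds adaptors of receptor tyrosine kinases and limits RAS and RAF activation. Spry2 (ENSMUSG00000022114) lies on chromosome 14 from 105891947 to 105896819, minus strand. It had 40.6, 48.1, 44.3, 60.0 and 66.6 CPM in HSA-NRTN replicates 1 to 5, against 2.52, 57.2, 24.4, 65.7 and 32.5 CPM in wild-type replicates 1 to 5. The HSA-NRTN libraries lay close together, while the wild-type libraries were spread wide, near 0 in replicate 1 and at the HSA-NRTN level in replicates 2 and 4. On the log2 scale the fold change was 0.51 (SE 0.54, 95% interval -0.64 to 1.66), which did not pass (edgeR adjusted p = 0.999). It was 0.21 without wild-type replicate 1, where Spry2 had 11 counts, and was 1.42 with the run of animal numbers as a covariate (unadjusted p = 0.0421, adjusted p = 0.813), a run being consecutive animal numbers in the labels, whose meaning no label states. Low Spry2 in wild-type replicate 1 stood beside the fewest genes detected of any library, 14090. HSA-NRTN replicate 2, with the next fewest, 14858, had 48.1 CPM. The part of gene detection in the level of Spry2 was not tested.

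Spry4 (ENSMUSG00000024427), whose product acts at the same step, lies on chromosome 18 from 38586247 to 38601415, minus strand. It had 20.8, 14.1, 13.6, 10.4 and 7.64 CPM in HSA-NRTN replicates 1 to 5, against 6.20, 7.65, 6.10, 2.75 and 19.6 CPM in wild-type replicates 1 to 5. HSA-NRTN replicates 1 to 4 lay above 4 of the 5 wild-type libraries, HSA-NRTN replicate 5 stood level with wild-type replicate 2, and wild-type replicate 5 was the second highest of all. The fitted log2 difference was 0.65 (SE 0.58, 95% interval -0.59 to 1.88), which did not pass (edgeR adjusted p = 0.999). It was 1.22 without wild-type replicate 5 (unadjusted p = 0.0529, adjusted p = 0.912). Wild-type replicate 5 also had the highest wild-type Etv1, Etv4 and Dusp4. The summed level of 3 excitatory interneuron markers, nearly all of it Slc17a6, was 149, 87.0, 21.4, 45.5 and 182 CPM in HSA-NRTN replicates 1 to 5, against 20.9, 0.283, 29.6, 4.47 and 300 CPM in wild-type replicates 1 to 5. It was highest in wild-type replicate 5 and high in HSA-NRTN replicates 1 and 5. HSA-NRTN replicate 1 had the highest Spry4 of its genotype but only 0.890 CPM of Dusp4. HSA-NRTN replicate 5 had the highest Dusp4 of its genotype but the lowest Spry4, 7.64 CPM. The part of interneuron RNA in these levels was not tested.

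Spry1 (ENSMUSG00000037211), a Sprouty gene known for restraining RET signalling in the kidney, lies on chromosome 3 from 37639947 to 37644598, plus strand, and was removed by the filter on low counts. It had 3.26, 5.40, 0.550, 1.71 and 1.48 CPM in HSA-NRTN replicates 1 to 5, against 5.28, 2.55, 0.938, 0.172 and 0.992 CPM in wild-type replicates 1 to 5. The genotypes had 42 counts each and overlapped fully. Its pooled ratio was 1.06 (exact 95% counting interval 0.673 to 1.66). Wild-type replicate 1 held 23 of the 42 wild-type counts, and without it the ratio was 1.89 (1.08 to 3.45). Over animals, an exact two-sided permutation test of the CPM gave p = 0.659 (n = 5 each). Of the 10 genes it alone shared exon bases with a gene on the other strand, Gm42922, which had 1 count over all libraries.

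Dusp6, the phosphatase of ERK in the cytoplasm, had the largest fitted difference of the 7 genes past the filter. Dusp6 (ENSMUSG00000019960) lies on chromosome 10 from 99263231 to 99267489, plus strand, downstream of the first promoter printed above. It had 5.04, 7.57, 3.66, 5.84 and 6.41 CPM in HSA-NRTN replicates 1 to 5, against 0.689, 7.08, 1.64, 1.20 and 2.78 CPM in wild-type replicates 1 to 5. All 5 HSA-NRTN libraries exceeded 4 of the 5 wild-type libraries, and wild-type replicate 2 lay at the HSA-NRTN level. These levels rest on 118 counts in HSA-NRTN and 56 counts in wild-type libraries, with 3 to 41 counts per library. Its log2 fold change was 1.09 (SE 0.77, 95% interval -0.54 to 2.72), which did not pass (edgeR unadjusted p = 0.175, adjusted p = 0.999). Without wild-type replicate 2 it was 1.84 (unadjusted p = 0.0409, adjusted p = 0.9996), and leaving out any single library kept it between 0.84 and 1.84. The authors' deposited table gave a shrunken log2 fold change of 0.74 with an unadjusted p of 0.0465 and an adjusted p of 0.586.

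Dusp4 (ENSMUSG00000031530), a nuclear phosphatase of ERK, lies on chromosome 8 from 34807297 to 34819894, plus strand. It had 3, 5, 0, 13 and 27 counts in HSA-NRTN replicates 1 to 5, against 0, 0, 0, 0 and 6 counts in wild-type replicates 1 to 5, or up to 6.66 CPM in HSA-NRTN and 1.19 CPM in wild-type pools. Replicate 5 held 27 of the 48 HSA-NRTN counts, and 1 HSA-NRTN library had none. The ratio of pooled counts was 8.46 (exact 95% counting interval 3.62 to 24.2), an interval that leaves out the spread between animals. Without HSA-NRTN replicate 5 it was 4.55 (1.78 to 13.8), and without wild-type replicate 5 the HSA-NRTN libraries held 48 counts and the wild-type ones 0. Over animals, an exact two-sided permutation test of the CPM gave p = 0.0873 (n = 5 each), where the smallest p this design allows is 0.00794. With no filter beyond 1 count edgeR gave a log2 fold change of 3.16 (SE 1.74), which depends on the prior count where so many libraries are at 0, with an unadjusted p of 0.0759 and an adjusted p of 0.444, and the authors' deposited table gave 0.0212 and 0.432.

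Spred1 was the steadiest of the tested genes and the most abundant in CPM. SPRED proteins bring neurofibromin, an inhibitor of RAS, to the membrane. Spred1 (ENSMUSG00000027351) lies on chromosome 2 from 117121374 to 117182279, plus strand. It had 97.9, 95.7, 67.2, 60.6 and 67.8 CPM in HSA-NRTN replicates 1 to 5, against 76.7, 90.3, 48.8, 43.2 and 88.8 CPM in wild-type replicates 1 to 5. The genotypes overlapped, and the males of each were its highest libraries. On the log2 scale the fold change was 0.16 (SE 0.29, 95% interval -0.45 to 0.77, edgeR adjusted p = 0.999), which leaves room for a fold between 0.733 and 1.70, the narrowest interval of the 7 genes tested.

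Spred2 (ENSMUSG00000045671) lies on chromosome 11 from 19924375 to 20024026, plus strand. It had 26.1, 59.4, 16.3, 19.8 and 31.3 CPM in HSA-NRTN replicates 1 to 5, against 61.7, 36.8, 15.5, 8.78 and 26.8 CPM in wild-type replicates 1 to 5. Its 2 highest libraries were also those of Etv5 and of the glial markers (replicate 2 of HSA-NRTN and replicate 1 of the wild type), and the genotypes overlapped almost completely. The log2 fold change was 0.02 (SE 0.50, 95% interval -1.05 to 1.10, edgeR adjusted p = 0.999) and 0.09 without both libraries. It was -0.36 without HSA-NRTN replicate 2 and 0.46 without wild-type replicate 1, so no direction can be given for it, and the part of glial RNA or RNA quality was not tested.

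Set side by side per kilobase of exon, the 10 genes ranged from Spry2, the highest, to Etv4. Over all libraries Spry2 averaged 21.2 ± 9.68, Spred1 10.9 ± 2.86, Spred2 6.55 ± 3.89, Etv5 6.28 ± 2.87, Spry4 2.29 ± 1.26, Etv1 2.12 ± 2.08, Dusp6 1.34 ± 0.811, Spry1 0.769 ± 0.645, Dusp4 0.485 ± 0.766 and Etv4 0.0403 ± 0.0706 CPM per kb (SD, n = 10). Neighbours that differed by less than the larger of their SDs were Spred2 and Etv5, and every pair of neighbours from Spry4 down to Etv4. The lengths are those of all annotated exons together, which is long for Etv1 (13.3 kb). By the longest coding transcript Etv1 averaged 4.28 ± 4.20 CPM per kb and moved above Spry4. Spry2 and Spred1 were then no longer separated by more than the larger SD, and neither were Etv5 and its new neighbour Etv1. The order held only in part within a genotype. In HSA-NRTN pools Etv5 stood above Spred2, Etv1 above Spry4 and Dusp4 above Spry1, none of these pairs apart by more than the larger SD. In wild-type pools only Etv5 and Spry4 were neighbours apart by more than the larger SD. Within families, Spry2 led the Sprouty genes in 9 of 10 libraries, the exception being wild-type replicate 1, and Spred1 led Spred2 in 9 of 10. Dusp6 was above Dusp4 in 9 of 10.

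**Figure D2:**
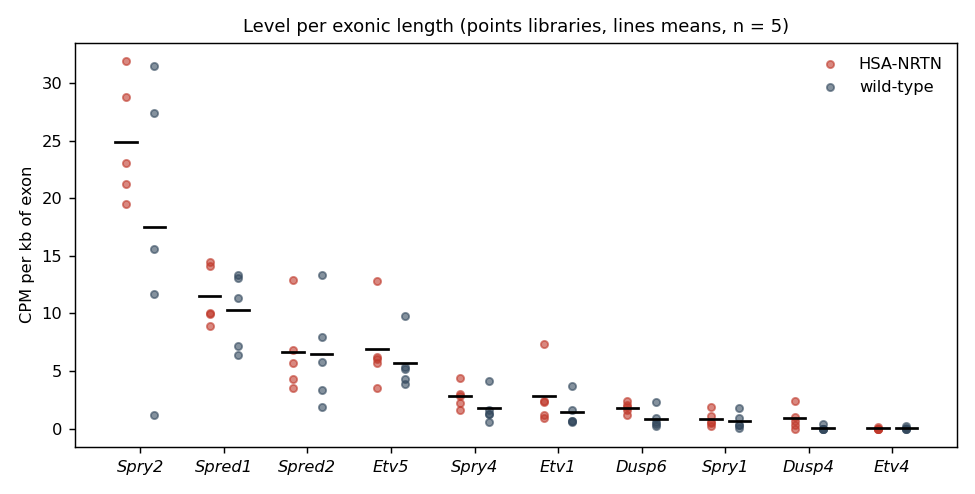
Level of the 10 genes per kilobase of exon (CPM per kb), ordered by their mean over all libraries, with HSA-NRTN libraries left and wild-type libraries right of each tick and lines at the means of 5 libraries. Spry2 stands highest, at a mean of 24.9 CPM per kb in HSA-NRTN and 17.5 CPM per kb in wild-type pools, and Etv4 lies next to 0.

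Across all genes the genotype test in edgeR called 1 of 11630 genes (0.0086%) at an adjusted p under 0.05. The authors' deposited table had 155 of 14778 genes under the same mark. None of the 10 genes was among those, the lowest adjusted p there being 0.432 for Dusp4. Of the 10 genes, 7 passed the filter and 0 were called by edgeR, and 0 were called by DESeq2 or limma voom. None of the 7 had an unadjusted p under 0.05 in edgeR, where 4.83% of all genes did, and none had groups that did not overlap, against 1.25% of all genes. All 7 log2 fold changes were positive, with a median of 0.51, where 48.6% of all genes were positive and their median was -0.01. The 7 are those that passed the filter on low counts, so this count does not stand for all 10, and Etv5, Spry2 and Spred2 turned negative under other settings. In Etv1, Spry2, Spry4 and Dusp6 every HSA-NRTN library lay above the wild-type median, a pattern that 10.4% of all genes showed. The spread between animals was large relative to the differences: a fold of 1.95 for Etv1 had a 95% interval of 0.767 to 4.95, and one of 2.13 for Dusp6 had 0.688 to 6.58. These intervals neither show a difference nor show that the genotypes were alike.

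**Figure D3:**
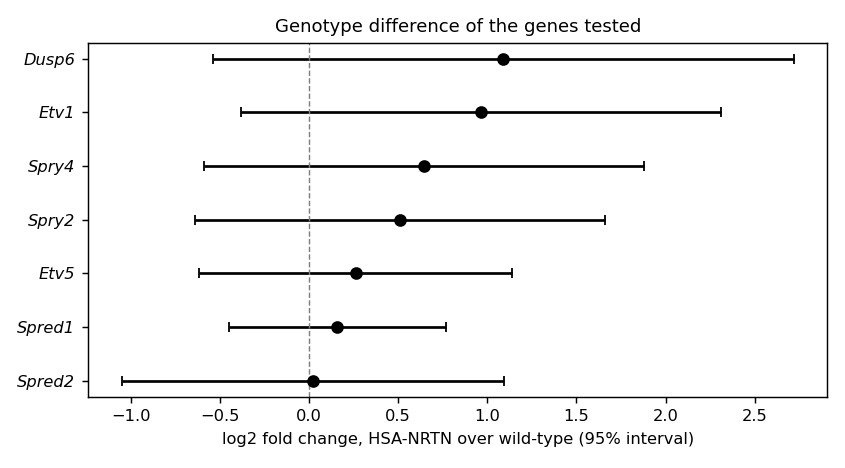
Fitted log2 fold change of the 7 genes tested, HSA-NRTN over wild-type, with 95% intervals from edgeR's quasi-likelihood fit over 11630 genes. All 7 points lie above 0, from 0.02 for Spred2 to 1.09 for Dusp6, and every interval spans 0.

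**Figure D4:**
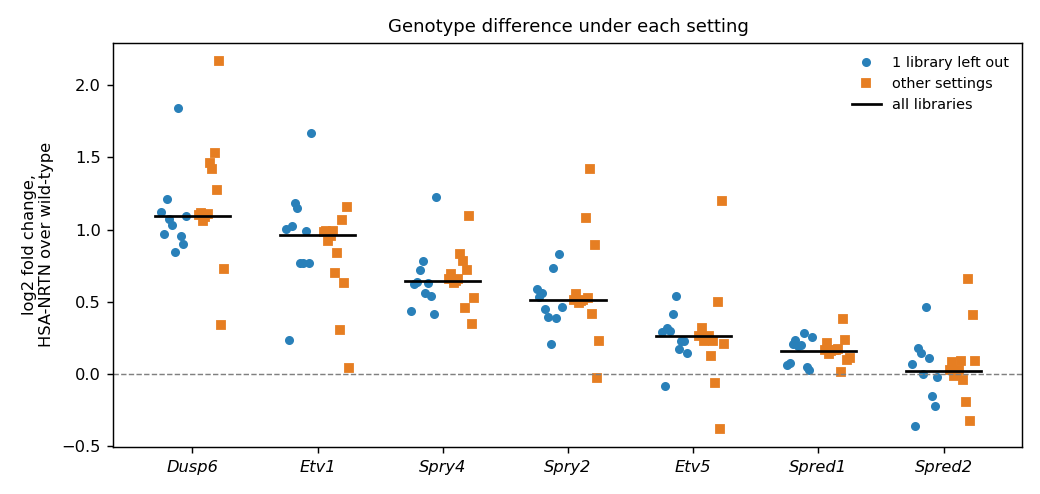
The same log2 fold changes with all libraries (black lines), with 1 library left out (circles) and under other settings (squares). Dusp6, Etv1, Spry4 and Spred1 stayed above 0 throughout, with Etv1 as low as 0.043 and Spred1 as low as 0.013, while Etv5 reached -0.38, Spry2 -0.028 and Spred2 -0.36.

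Upstream of these genes, Ret was at 852 ± 325 CPM in HSA-NRTN and 420 ± 72.5 CPM in wild-type pools (SD over 5 each), a log2 fold change of 1.02 (SE 0.27) that did not pass over all genes (edgeR unadjusted p = 0.00159, adjusted p = 0.403). The HSA-NRTN libraries ran from 448 to 1212 CPM and the wild-type libraries from 306 to 494 CPM, so the groups overlapped. Of the 5 receptor genes in the family list 3 were tested, Ret among them, and all 3 had positive fold changes without a call.

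The steps between RET and ERK, and the alternative PI3K and PLC branches of RET signalling, showed no called gene in edgeR. The counts at an unadjusted p under 0.05 follow for each list. Of 20 adaptor genes 14 were tested, 6 with a positive and 8 with a negative log2 fold change (median -0.03), and 1 was under 0.05 unadjusted. That was Gab2, a docking protein gene, at 23.6 ± 12.2 CPM in HSA-NRTN and 11.1 ± 4.06 CPM in wild-type pools (SD over 5 each, unadjusted p = 0.0346, adjusted p = 0.967). Of 16 genes of the RAS, RAF, MEK and ERK core 15 were tested, 10 positive and 5 negative (median 0.07), and 0 were under 0.05 unadjusted. Of 9 genes of the PI3K and PLC branches all were tested, 4 positive and 5 negative (median -0.01), and 0 were under 0.05 unadjusted, with fold changes on the log2 scale between -0.30 and 0.13.

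Other negative regulators of the pathway gave the same count of calls. Of 14 such genes 12 were tested, 8 positive and 4 negative (median 0.21), and 0 were under 0.05 unadjusted. The one of smallest p was Rasa3, a GTPase-activating protein gene, at 6.89 ± 2.5 CPM in HSA-NRTN and 14.7 ± 7.60 CPM in wild-type pools (SD over 5 each, edgeR unadjusted p = 0.0661). Of 17 paralogs of the 10 genes and other ETS factors, 10 were tested, 4 positive and 6 negative (median -0.23), and 0 were under 0.05 unadjusted. Ets2, an ETS factor gene that RAS signalling is known to activate, was at 21.5 ± 10.9 CPM in HSA-NRTN and 39.2 ± 20.6 CPM in wild-type pools (log2 fold change -0.86, SE 0.45, edgeR unadjusted p = 0.0720).

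Effectors and immediate early targets of ERK had differences in both directions. Of 22 such genes 17 were tested, 8 positive and 9 negative (median -0.00), 0 were called, and an unadjusted p under 0.05 was found for 2 with a positive difference (2.41% of all genes) and 3 with a negative one (2.42% of all genes). The cyclin gene Ccnd1 was at 30.2 ± 12.7 CPM in HSA-NRTN and 13.8 ± 6.48 CPM in wild-type pools (SD over 5 each, edgeR adjusted p = 0.921). Of the MNK kinase genes, whose products ERK activates, Mknk2 was at 9.69 ± 3.55 CPM in HSA-NRTN and 25.1 ± 12.2 CPM in wild-type pools (edgeR adjusted p = 0.835). Mknk1 was at 15.7 ± 3.83 CPM in HSA-NRTN and 29.6 ± 11.8 CPM in wild-type pools (edgeR adjusted p = 0.967). Transcripts outside the 10 genes that are commonly read as MAPK activity did not share a direction. Of the 3 tested of 4, Ccnd1 and the ephrin receptor gene Epha4 had positive log2 fold changes (1.12 and 1.24), and Phlda1, a feedback gene of receptor signalling, a negative one (-1.15, SE 0.54), each with an unadjusted p under 0.05 and none called. Epha4 was spread wide, at 81.1 ± 80.3 CPM in HSA-NRTN pools (20.7 to 221 CPM) and 34.1 ± 9.51 CPM in wild-type pools (21.1 to 44.2 CPM). Its lowest HSA-NRTN library lay below all wild-type libraries.

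The sexes did not overlap in Spred1, whose genotypes did. Spred1 had 97.9 and 95.7 CPM in HSA-NRTN males and 90.3 and 88.8 CPM in wild-type males, all above the females, which ran from 60.6 to 67.8 CPM in HSA-NRTN and from 43.2 to 76.7 CPM in wild-type pools. It was the 1 gene of the 7 tested whose sexes did not overlap, against 2.27% of all genes. The log2 fold change of males over females, with genotype in the model, was 0.62 (SE 0.24, 95% interval 0.10 to 1.14). It did not pass over all genes (edgeR unadjusted p = 0.0220, adjusted p = 0.406). Leaving out any single library kept it at 0.54 or higher, with an unadjusted p of up to 0.0608 (without wild-type replicate 2).

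Etv1 was at 46.4 ± 37.8 CPM in 4 males and 16.0 ± 8.44 CPM in 6 females (SD), with a log2 fold change of 1.46 (SE 0.52, edgeR unadjusted p = 0.0141, adjusted p = 0.399), and its unadjusted p reached 0.146 without wild-type replicate 5. Spry4 was at 15.5 ± 6.01 CPM in males and 7.78 ± 3.76 CPM in females (log2 fold change 1.09, SE 0.53, edgeR adjusted p = 0.457). Of the 7 tested genes 0 were called for sex by edgeR and 2, Spred1 and Etv1, had an unadjusted p under 0.05, where 11.2% of all genes did and 0.0086% were called. All 7 log2 fold changes of males over females were positive with all libraries, against 49.2% of all genes, although those of Etv5 and Spry2 turned negative with a library left out.

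In edgeR's test of whether the genotype difference differed between the sexes, none of the 7 genes was called and none had an unadjusted p under 0.05. Of all genes 0% were called and 5.14% of all genes had an unadjusted p under 0.05. The Etv5 difference came closest. In males Etv5 was at 25.5 and 52.4 CPM in HSA-NRTN pools and 17.6 and 15.9 CPM in wild-type pools, and in females at 14.5 to 24.9 CPM in HSA-NRTN pools and 21.3 to 40.2 CPM in wild-type pools. The interaction term of Etv5 was 1.62 on the log2 scale (SE 0.78, edgeR unadjusted p = 0.0566, adjusted p = 0.922), and it was 0.65 without the pair of libraries high in glial markers. In females alone, 2 of the 7 genes had genotypes that did not overlap (n = 3 each), as did 11.7% of all genes fitted in females. Dusp6 was at 3.66 to 6.41 CPM in HSA-NRTN pools and 0.689 to 1.64 CPM in wild-type pools and Spry4 at 7.64 to 13.6 CPM in HSA-NRTN pools and 2.75 to 6.20 CPM in wild-type pools. In males, Dusp6 was at 5.04 and 7.57 CPM in HSA-NRTN pools and 7.08 and 2.78 CPM in wild-type pools, and Spry4 at 20.8 and 14.1 CPM in HSA-NRTN pools and 7.65 and 19.6 CPM in wild-type pools, so the genotypes overlapped. Their log2 fold changes in males were 0.34 each (edgeR unadjusted p = 0.798 for Dusp6 and 0.701 for Spry4), against 2.16 for Dusp6 and 1.09 for Spry4 in females. The fit of females alone did not call either (edgeR adjusted p = 0.998 for both), and their interaction terms had unadjusted p of 0.245 for Dusp6 and 0.513 for Spry4.

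**Figure D5:**
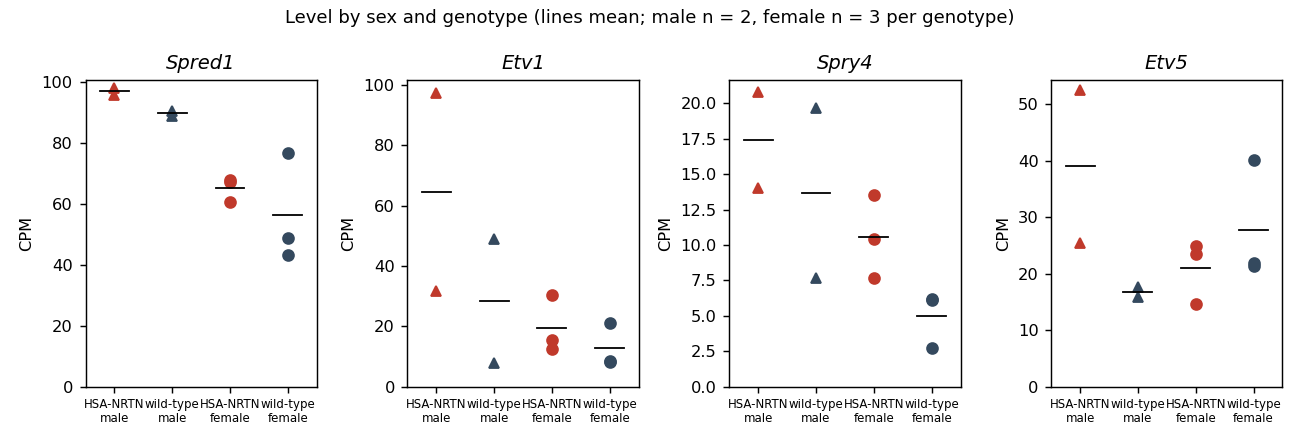
Levels of Spred1, Etv1, Spry4 and Etv5 (CPM) in males and females of each genotype, with HSA-NRTN left of wild-type in each sex and lines at the means (2 males and 3 females per genotype). Spred1 lies between 88.8 and 97.9 CPM in the 4 males and between 43.2 and 76.7 CPM in the 6 females.

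Across the 10 libraries the 7 tested genes did not vary as one block. Of their 21 pairs, 17 had a positive and 4 a negative Pearson correlation of log2(CPM + 1), with a median of 0.320 and a range of -0.462 to 0.768. Spred1 and Spred2 were the most alike and Spry2 and Spred2 the least. For Spred1, the gene of highest mean CPM, the most similar profiles among 8549 other genes with a mean of at least 10 CPM were those of Nuak1 (r = 0.956), Dyrk3 (0.940), Phactr4 (0.919), Hdac11 (0.918) and Elavl4 (0.915). All these values are descriptions over 10 libraries that share depth, composition and sex differences, with genes picked as the highest of many.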

How the data were processed

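Pools of laser-captured lumbar motor neurons from 10 mice were turned into Smart-seq2 libraries by Tn5, per the labels' protocols, with no strand information. The submitters' processing notes name STAR 2.5.0a, HTSeq, DESeq2 and the build GRCm38.p6, without annotation release or settings. Deposited per library are raw counts of 51912 genes, 92 spike-ins and 5 tally entries. Spike-ins and tallies stayed out of library sizes and tests. The tallies, which name no gene, made up 57.6% to 86.5% of all counts per library. A deposited table holds a signal, counts divided by 1 size factor per library, for 18754 features. The authors' deposited comparison table holds shrunken log2 fold changes, a test statistic (score), p-values and adjusted p-values.

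Genes passing filterByExpr (11630) were scaled by TMM and tested in edgeR 4.0.16 (quasi-likelihood, R 4.3.3), with no covariate for genotype, with genotype in the model for sex, and with both and their interaction. P-values were adjusted over all genes (Benjamini-Hochberg), with calls under 0.05, at a common biological coefficient of variation of 0.595. CPM use TMM-scaled library sizes, and standard errors and intervals come from the F statistic. Lengths and coordinates are those of GENCODE M21. The 3 edgeR tests were checked on simulated counts. DESeq2 1.42.0 and limma 3.58.1 voom were alternatives. Groups and sex come from the labels, and replicate numbers only name libraries. Every one of the 10 genes is named, and of each other list up to 3 genes with an unadjusted p under 0.05, else the 1 of smallest p. A gene that this rule names in 1 list is not reported here. The members and lists were chosen with earlier results of these data known. Leaving out libraries from the sex and interaction fits and from pooled count ratios was added after seeing the data.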

Additional observations from a re-analysis of the deposited data

Results flagged for a closer look

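In 6 of 20 groups of 5 libraries (10 genes in each genotype), 1 library lay farther from its neighbour than 0.71 of the group's whole range, where chance flags about 1 group in 20 of normally distributed values. Over the 11630 tested genes 10.1% of such groups passed this mark, and 4 of the 14 groups of the 7 tested genes did. The groups share libraries and are not independent. HSA-NRTN replicate 2 was high for Etv1 (97.3 CPM, against 12.4 to 31.7 CPM in the other HSA-NRTN libraries) and for Etv5 (52.4 CPM, against 14.5 to 25.5 CPM). This library had the lowest gene count, 1875971, and the highest astrocyte and oligodendrocyte marker sums. Wild-type replicate 1 was high for Etv5 (40.2 CPM, where the others of its genotype had 15.9 to 21.8 CPM) and had the second highest sums. Wild-type replicate 5 was high for Spry4 (19.6 CPM, against 2.75 to 7.65 CPM) and, with 6 counts where the other wild-type libraries had 0, for Dusp4 (1.19 CPM). Etv4 was counted in HSA-NRTN replicate 4 alone among HSA-NRTN libraries, with 3 counts (0.428 CPM). The flags of Etv4 and Dusp4 arise because the other 4 libraries of the group had 0 counts.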

How the results depend on the processing

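No paired analysis was possible because replicate numbers were given in accession order and no label pairs the animals. No tested member passed under any of the 22 alternatives. Of 154 member fold changes recomputed for genotype, 142 kept their direction and 12 reversed. With 1 library left out, the genotype log2 fold change ran from -0.080 to 0.54 for Etv5 and from -0.36 to 0.46 for Spred2. Etv5 was -0.38 in females only and -0.064 with the run of animal numbers as a covariate, Spry2 was -0.028 in males only, and Spred2 was -0.015 with no filter beyond 1 count, -0.043 with sex as a covariate, -0.19 with the run of animal numbers as a covariate and -0.32 in females only. For sex, leaving out 1 library gave -0.31 to 0.34 for Etv5 and -0.23 to 0.60 for Spry2, and leaving out the pair high in glial markers (replicate 2 of HSA-NRTN, replicate 1 of the wild type) gave -0.075 for Etv5 and -0.20 for Spry2. Without these same libraries the interaction was -0.23 for Etv1 and -1.18 for Spred2. The cause of these changes was not tested. The number of genes called for genotype over all genes, 1 with all libraries, was 81 with no filter beyond 1 count, 58 in DESeq2, 3 in limma voom, 5 with sex, 10 with genes detected and 0 with the run of animal numbers as a covariate, 0 in females only, 0 in males only, and 0 (without wild-type replicate 2) to 13 (without HSA-NRTN replicate 3) with 1 library left out. The lowest of the 10 genes are limited by depth: Etv4 had 7 counts and Dusp4 54 counts over all libraries.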
